A study of Mus musculus with 5 samples.

Results

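Chromosome 17 carried 1316 of the 30398 RAP1 peaks of the series (4.33%), a set defined by position, since every listed peak on the chromosome was taken. The chromosome and its histocompatibility region, from 33.5 to 37.5 Mb, were selected on measured values, namely the number of peaks per megabase, the dense 1 Mb bin at 35 Mb and the sparse distal end. Peak densities are therefore given as a description, with no test. The region holds 127 of the 1316 peaks and the rest of the chromosome 1189.

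RAP1 is a shelterin protein that TRF2 recruits to telomeres, the repeat-capped chromosome ends, and it also occupies sites inside chromosomes. The mouse histocompatibility complex, H2, holds clustered genes of the immune system. Class I genes such as H2-K1 and H2-D1 encode surface proteins that show peptides from inside the cell to T cells, and class II genes such as H2-Aa and H2-Ab1 encode proteins that show peptides taken up from outside. Between them lie genes of complement and cytokines, among them C4b and Tnf. In the RefSeq gene table of the GRCm38 assembly, 169 of the 1059 protein-coding genes of chromosome 17 run from H2-K1 to H2-M2, and 35 of the 169 have an H2 symbol. The peak positions are those of the mm9 build, no sequence or annotation of that build was used here, and no peak was given a gene. The name of the region thus rests on its position alone.

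All libraries came from mouse embryonic fibroblasts of mixed background, immortalised with SV40 large T antigen and grown with puromycin. RAP1 was immunoprecipitated from wild-type cells (2 libraries) and from Rap1-deleted cells, the negative control (2 libraries), and 1 input library had no antibody. In the peak list the libraries are merged, with positive and negative reads taken here as those of the wild-type and the Rap1-deleted libraries from the study's design text. Whether the input is part of the negative set is not given in the sources used here. In the authors' deposited table the maximum log2 fold of every listed peak is above 0. This fold does not follow the whole-peak reads. The peak from 95149357 to 95149394 has 116 positive reads, 41 at its highest window and a fold of 5.39. The peak from 45703793 to 45703821 has 75 positive reads, 48 at its highest window and a fold of 5.61. Forward and reverse windows of listed peaks each hold 10 or more positive reads. Positive over negative ratios of listed peaks, and their intervals against 1, are therefore shaped by the choice of peaks and are given as a description. No library has a value of its own, so no value below has a spread between replicates. Intervals are 95% intervals for counting error only, and they are too narrow for peaks that cluster or for reads that are PCR copies.

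RAP1 peaks on chromosome 17 lay at 14.3 per Mb between the first and the last listed peak, against 11.8 per Mb on the other chromosomes, a ratio of 1.21 (1.15 to 1.28). With chromosome X, at 2.84 per Mb, left out of the others, the ratio was 1.15 (1.09 to 1.22). The density of chromosome 17 was the 6th highest of 20 chromosomes. Along the chromosome the 91 whole 1 Mb bins held 1 to 49 peaks with a median of 12, and the variance of the bin counts was 6.61 times their mean. The densest bin was the one at 35 Mb with 49 peaks. It was followed by the bin at 24 Mb with 34 and the bin at 75 Mb with 33. At the other extreme, the bin at 11 Mb held 1 peak, and the bins at 38, 55 and 90 Mb held 2 each. The 15 bins from 23 Mb up to 38 Mb held 373 peaks, 28.3% of the chromosome. By contrast, the 6 bins from 6 Mb up to 12 Mb held 26 together. Across all chromosomes, 6 of 2500 occupied bins held 49 peaks or more, and the median occupied bin held 10.

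**Figure D1:**
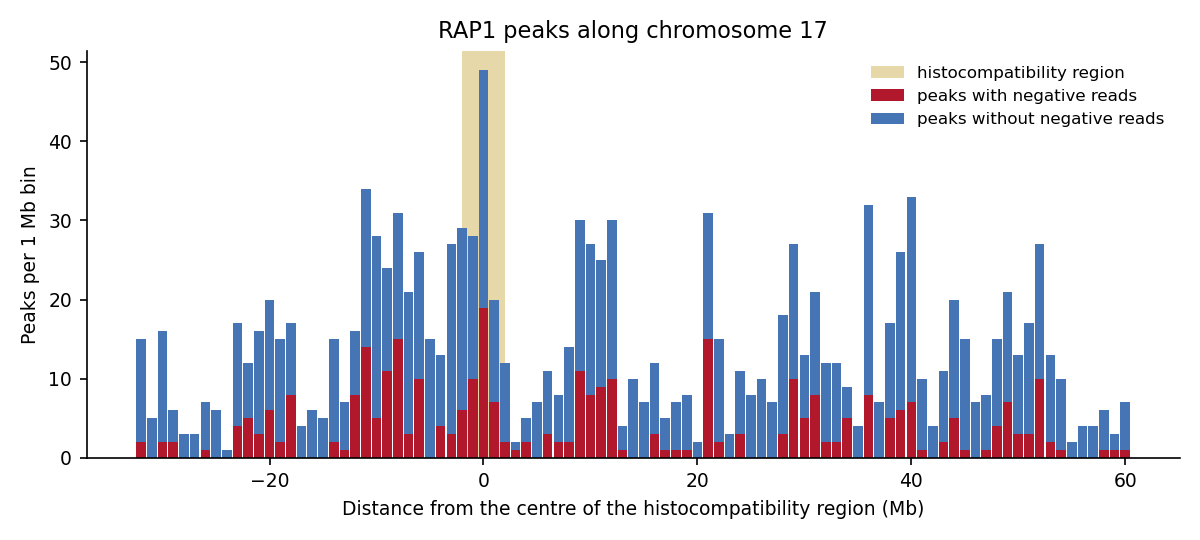
Peaks per 1 Mb bin (vertical axis) against distance from the centre of the histocompatibility region in Mb (horizontal axis), split into peaks with (red) and without (blue) negative strand reads, with the region shaded. The bin at the centre reaches 49 peaks, and other bins reach 34 and 33.

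In the histocompatibility region RAP1 peaks stood at 31.8 per Mb, against 13.5 per Mb over the rest of chromosome 17, a ratio of 2.35 (1.95 to 2.83). The dense bin alone gave 3.53 (2.59 to 4.69) over the remainder of the chromosome. Outside the 5 bins that the region touches, 21 bins held 20 or more peaks, with 26.7 per Mb, and the region's ratio over these was 1.19 (0.972 to 1.44). Those bins were taken for their high counts after the values were seen, which brings this ratio toward 1 by construction. Region peaks were unevenly placed, with 22 between 33.5 and 34 Mb, 28 in the bin at 34 Mb, 49 at 35 Mb, 20 at 36 Mb and 8 from 37 to 37.5 Mb. Of its 40 windows of 100 kb, 5 held 8 or more peaks and 46 peaks together, whereas 6 windows held none. The fullest windows began at 35.1 Mb with 12 peaks and at 35.9 Mb with 10. Neighbouring peaks lay under 10 kb apart in 53 of 126 region pairs (42.1%), against 319 of 1315 pairs of the whole chromosome (24.3%). The peaks nearest to the bounds inside the region, from 33531772 to 33531800 and from 37447966 to 37448000, had 33 and 21 positive reads. Those nearest outside, from 33489017 to 33489086 and from 37616138 to 37616189, had 29 and 25.

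**Figure D2:**
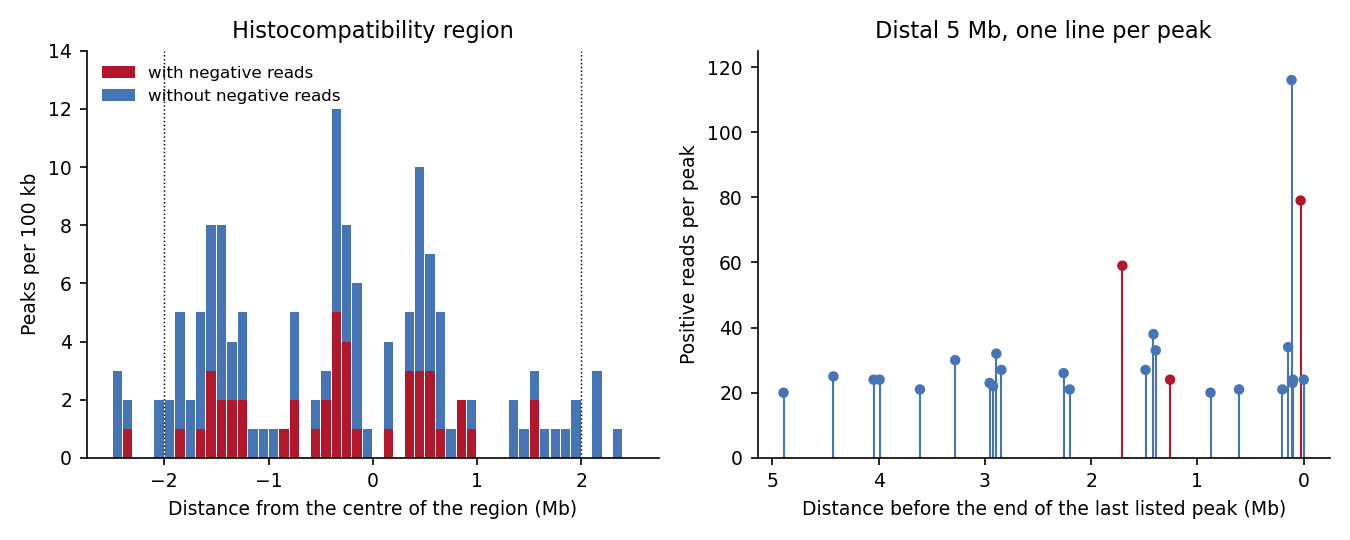
Left, peaks per 100 kb against distance in Mb from the centre of the histocompatibility region, whose bounds are dotted, with peaks split into those with (red) and without (blue) negative strand reads. Right, positive reads of each of the 26 peaks in the distal 5 Mb against distance in Mb before the end of the last listed peak, in the same colours. The left panel peaks at 12 and 10 per window, and the right panel shows most lines between 20 and 40 reads with a tall one at 116 near the end.

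Control reads were more frequent at chromosome 17 peaks than over the list. A peak was counted as having control reads when the forward and reverse strand windows of the list held at least 1 negative read. This was so for 334 peaks (25.4%, 23.0 to 27.8), against 18.5% (18.0 to 18.9) on the other chromosomes and a background of 18.8% over all 30398 peaks. Only chromosome 11, at 25.6%, had a larger share among 20 chromosomes. Without its largest group of joined peaks, a subset taken after the values were seen, chromosome 11 stood at 23.3% (21.5 to 25.2). Summed over chromosome 17, the strand windows set 40219 positive against 3103 negative reads. Negative reads were multiplied by 3.32, the scale that the deposited log2 folds carry, which gave a positive over negative ratio of 3.90 (3.76 to 4.05). The other chromosomes together gave 5.85 (5.79 to 5.90), and again only chromosome 11 was lower, at 3.88. The share of peaks at or under a ratio of 1 was largest on chromosome 17, with chromosome 11 nearly level at 9.81% (8.60 to 11.1). Chromosome 17 had 130 such peaks (9.88%, 8.32 to 11.6) against a background of 6.58%. Whole-peak columns showed almost none of this, since just 5 of the 1316 peaks had a negative read there and 329 of the other 1311 had some in the strand windows. Of 388 strand entries with negative reads, 189 had their highest negative position within the peak itself (48.7%), against 50.7% on the other chromosomes. Such reads would be part of a full whole-peak count, yet few peaks had any there. Whole-peak negative counts and ratios, here and below, therefore cannot be read as plain counts of control reads within the peak. The cause of this conflict between columns was not tested. Negative reads lay on 1 strand only at 280 of the 334 peaks (83.8%), against 89.0% elsewhere.

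**Figure D3:**
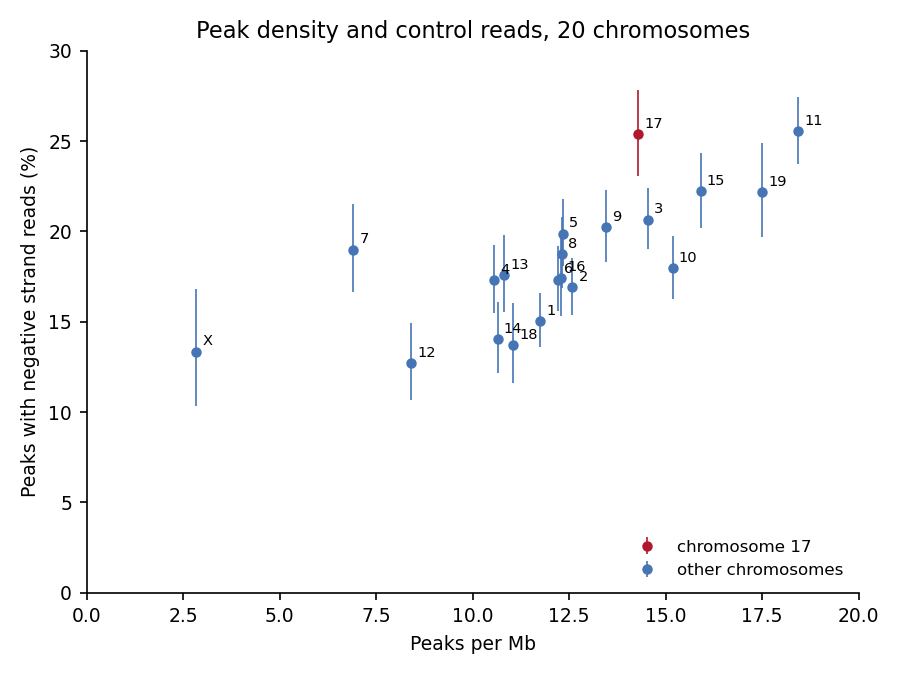
Share of peaks with negative strand reads in percent, with exact 95% intervals, against peaks per Mb for 20 chromosomes, with chromosome 17 in red and the others in blue. Chromosome 17 lies at 14.3 peaks per Mb and 25.4%, level with chromosome 11 at 18.4 peaks per Mb and 25.6%.

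The share with control reads was higher in crowded bins. On chromosome 17, negative strand reads appeared at 22 of 191 peaks in bins of 1 to 9 peaks (11.5%, 7.36 to 16.9) and at 89 of 438 in bins of 10 to 19 (20.3%, 16.6 to 24.4). In bins of 20 or more they appeared at 223 of 687 (32.5%, 29.0 to 36.1). The other chromosomes had 10.4% (9.65 to 11.3), 16.1% (15.4 to 16.7) and 25.0% (24.2 to 25.8) in the same 3 classes. Intervals of chromosome 17 and the others overlapped in the sparsest class and in the middle class narrowly, and were apart in the most crowded one. In that class chromosome 11 had 31.1% (28.7 to 33.6). Across 77 whole bins of at least 5 peaks on chromosome 17, Spearman's rho between peak number and share was 0.560, a description of bins that share libraries and depth.

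Within the histocompatibility region 43 of 127 peaks had negative strand reads (33.9%, 25.7 to 42.8), against 291 of 1189 over the rest of the chromosome (24.5%, 22.1 to 27.0). Those intervals overlap. The dense bin had 19 of 49 (38.8%, 25.2 to 53.8). In the 21 other crowded bins the share was 32.3% (28.4 to 36.3), close to that of the region. Strand windows held 4273 positive and 444 negative reads in the region, a ratio of 2.90 (2.63 to 3.20), against 35946 and 2659 in the rest, a ratio of 4.07 (3.91 to 4.24). Over the other crowded bins the ratio was 3.13 (2.98 to 3.30), and in the dense bin it was 2.53 (2.18 to 2.95). The positive strand reads per peak differed little, with 33.6 in the region and 30.2 in the rest. Scaled negative strand reads differed more in relative terms, with 11.6 and 7.43 per peak. The other crowded bins had 30.8 positive and 9.83 scaled negative strand reads per peak. Positive values are shaped by the listing of peaks for their positive reads. The part of crowding in these values was not tested.

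Taken singly, most peaks with control reads could not be told from the control in the summed strand windows at this depth. Of the 334 on chromosome 17, the interval of the strand ratio lay wholly above 1 for 54 (16.2%), wholly below 1 for 36 (10.8%) and across 1 for 244. Over all 5707 such peaks of the list, 20.3% lay above and 8.5% below. The region had 9 above, 5 below and 29 across. In the authors' deposited table a strand log2 fold below 0 was listed for 11 chromosome 17 peaks (0.836%, 0.418 to 1.49), against a background of 0.444% of the list. That fold is the authors' value per strand, and most of the 130 peaks with a summed strand ratio of 1 or less had none below 0. Of the 11, 4 lay in the region and 3 in its dense bin. They included the region's peak with the most negative strand reads, from 34238579 to 34238608, with 33 positive and 24 negative strand reads (0.414, 0.237 to 0.732). The largest number on the chromosome stood outside the region, from 71087080 to 71087108, with 41 positive and 44 negative (0.281, 0.179 to 0.439).

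Peak length separated these peaks further. Of the 11 peaks with a fold below 0, 10 were 29 to 31 bp long, as were 110 of 124 on the other chromosomes. This is the shortest class of the list. That class made up 223 chromosome 17 peaks (16.9%), against 17.8% of the list. In it 91 peaks (40.8%, 34.3 to 47.6) had negative strand reads, against 27.8% (26.6 to 29.0) of such peaks on other chromosomes. Peaks of 60 to 119 bp had 18.2% (14.7 to 22.2) on chromosome 17 and 13.0% (12.3 to 13.7) elsewhere. The share was not lowest in the longest class, since peaks of 120 bp or more had 30.2% (23.0 to 38.3) on chromosome 17 and 23.7% (22.2 to 25.2) elsewhere. In the region, 13 of 23 short peaks had negative strand reads (56.5%, 34.5 to 76.8), and 200 short peaks in the rest of the chromosome had 39.0% (32.2 to 46.1). Strand ratios on chromosome 17 were 2.01 (1.87 to 2.15) for short peaks, 4.12 (3.86 to 4.39) at 32 to 59 bp, 6.23 (5.76 to 6.75) at 60 to 119 bp and 3.99 (3.62 to 4.40) at 120 bp or more. Neither measure moved in 1 direction with length. Median length was 58 bp in the region and 55 bp in the rest, and median distance between strand modes 52 and 50 bp.

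**Figure D4:**
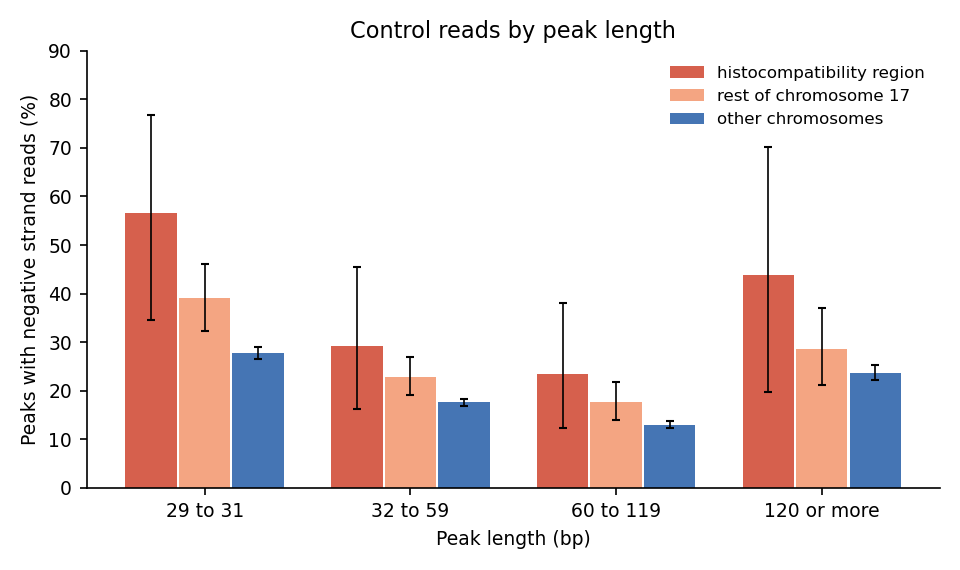
Share of peaks with negative strand reads in percent (bars, with exact 95% intervals) by peak length in bp, for the histocompatibility region, the rest of chromosome 17 and the other chromosomes. In each of the 4 length classes the bars step down in that order, with region intervals that overlap those of the rest.

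Peaks with 50 or more positive reads numbered 72 (5.47%, 4.31 to 6.84), against 4.17% on other chromosomes and 4.23% over the list. The region held 12 of its 127 (9.45%, 4.98 to 15.9), and the rest held 60 of 1189 (5.05%, 3.87 to 6.45), so the intervals overlap. The median peak had 32 positive reads in the region and 28 in the rest. Among the 10 best-ranked peaks of the chromosome none fell in the region, while 10 of the best 50 and 18 of the best 100 did. The region held 9.65% of all chromosome 17 peaks. A false discovery rate of 0.01 or less stood in the authors' deposited table for 83 region peaks (65.4%, 56.4 to 73.6) and 665 of the rest (55.9%, 53.1 to 58.8), beside 55.9% of the list.

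The best-ranked peak of the chromosome, 14th of the list, ran from 53291729 to 53291957. It had 72 positive and 3 negative reads, both over the peak and in the strand windows. That is 7.23-fold higher in wild-type reads, with an interval of 2.38 to 35.9, and 62 of its 72 positive strand reads were on the reverse strand. Of the 10 best-ranked peaks, 4 had no negative read in any column. Bounds for peaks without negative reads, here and below, set the merged negative reads to 3 and take the positive reads as exact. They leave out the counting error of the positive reads and are not comparable with the intervals of other peaks. The peak from 21610394 to 21610426 had 71 positive reads, at least 7.13-fold higher, and the one from 22362598 to 22362692 had 65, at least 6.52-fold. The peak from 17901315 to 17901398 had 64 reads, at least 6.42-fold, and that from 47995590 to 47995678 had 51, at least 5.12-fold. A good rank did not go with few control reads. Negative strand reads were found at 6 of the best 10 peaks, 25 of the best 50 and 41 of the best 100. Over the whole chromosome the share was 25.4%. The peak ranked 97, from 6016579 to 6016608, had 65 positive and 0 negative reads over the peak, but 49 against 29 in the strand windows, a ratio of 0.509 (0.315 to 0.835). Its neighbour from 6098021 to 6098106, ranked 129, had 50 against 16 strand reads (0.941, 0.527 to 1.77). The peak from 12961705 to 12961780 had 50 against 6 strand reads (2.51, 1.08 to 7.16). The other peaks of the 10, from 93557912 to 93557961 and from 47610655 to 47610719, had 59 and 52 positive reads, each against 2 negative reads, with ratios of 8.88 (2.35 to 75.1) and 7.83 (2.06 to 66.4).

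**Figure D5:**
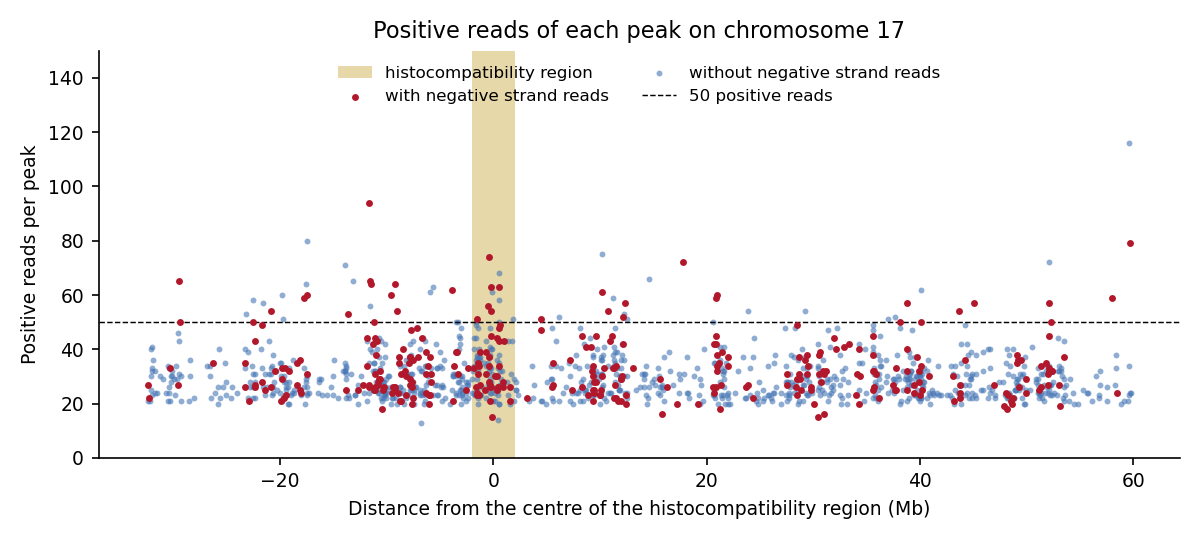
Positive reads of each chromosome 17 peak against distance in Mb from the centre of the histocompatibility region, shaded, with peaks that have negative strand reads in red and the others in blue. On or above the dashed line at 50 reads lie 72 peaks, 12 of them in the region, and the tallest has 116 reads near the distal end.

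Strong region peaks split in the same manner. The best-ranked, from 33920665 to 33920732, had 51 positive reads but 50 against 13 in the strand windows (1.16, 0.620 to 2.32). The next, from 36057313 to 36057397, had 68 positive reads and no negative read, at least 6.82-fold higher. A 30 bp peak from 35979380 to 35979409 had 58 positive reads and no negative read, at least 5.82-fold. The richest peak of the region, from 35121361 to 35121430, had 74 positive reads against 2 negative over the peak, 11.1-fold (2.98 to 93.7). In the strand windows, the measure used for the other ratios of this paragraph, it had 74 against 1 (22.3, 3.88 to 892). The fifth, from 35284694 to 35284768, had 48 against 17 strand reads (0.850, 0.480 to 1.58). Its close neighbour from 35285228 to 35285438 had 67 against 2 (10.1, 2.69 to 85.0).

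Joined at gaps of up to 10 kb, chromosome 17 peaks formed 7 groups of 5 or more among 113 in the series, and 3 of the 7 lay in the region. The largest, from 35949767 to 35979409, held 8 peaks over 29.6 kb with 14 to 58 positive reads each. Its strand ratio was 2.16 (1.52 to 3.15), and all 36 of its negative strand reads fell on 2 adjacent peaks, from 35969369 to 35969494 with 30 against 22 and from 35970308 to 35970336 with 24 against 14. The group from 36053540 to 36060387 held 5 peaks with 20 to 68 positive reads and a ratio of 2.82 (1.89 to 4.37). The third, from 34772897 to 34781548, held 5 with 22 to 43 reads and gave 2.40 (1.53 to 3.92). Outside the region, 7 peaks from 71081356 to 71104505 gave 1.26 (0.955 to 1.69), and 44 of their 63 negative reads lay on 1 peak of 29 bp. Groups of 5 peaks gave 1.29 (0.903 to 1.89) from 27691875 to 27699344, 1.98 (1.22 to 3.40) from 44907910 to 44914019 and 5.45 (2.80 to 12.1) from 65919032 to 65931462. The intervals of 5 of the 7 groups lay wholly above 1, among peaks listed for their positive reads. The share over all 113 groups of the series is not given here, so this count has no background beside it.

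Toward the distal end, away from the centromere, RAP1 peaks thinned out. The last 5 Mb before the end of the final listed peak, at 95264020, held 26 peaks (5.20 per Mb), against 14.8 per Mb over the rest of chromosome 17, a ratio of 0.351 (0.229 to 0.517). The bins from 90 to 95 Mb held 2 to 6 peaks each. Within this stretch peaks were not even, since the last 250 kb held 7 and the 4.75 Mb before them 19. Distal peaks had a median of 24 positive reads (interquartile range 22.2 to 31.5), against 28 (24 to 34) before them, and 18 of the 26 lay under 28. Negative strand reads were found at 3 of the 26 (11.5%, 2.45 to 30.2), against 331 of 1290 before them (25.7%, 23.3 to 28.1), and the strand ratio was 8.27 (5.75 to 12.3) against 3.86 (3.72 to 4.01). All chromosome 17 bins of 1 to 9 peaks, the distal ones included, had nearly the same values. Their share was 22 of 191 (11.5%, 7.36 to 16.9) and their strand ratio 7.12 (6.25 to 8.16). These 2 values are thus not particular to the distal end among sparse bins.

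Read-rich peaks still occurred at the end. The peak with the most positive reads on the chromosome lay 115 kb before the last peak end, from 95149357 to 95149394, with 116 positive reads and no negative read, at least 11.6-fold higher. Closer to the end, 29.6 kb before it, the peak from 95234171 to 95234448 had 79 positive reads and 71 against 13 in the strand windows, a ratio of 1.64 (0.903 to 3.24). The best-ranked of the stretch was the peak from 93557912 described above. A further pair had no negative read, with 38 positive reads from 93850329 to 93850358 and 32 from 92372433 to 92372513, bounds of at least 3.81-fold and 3.21-fold. The other 21 distal peaks had 20 to 34 positive reads.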

How the data were processed

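RAP1 chromatin immunoprecipitates of wild-type and Rap1-deleted fibroblasts and 1 input were sequenced on the Genome Analyzer IIx after gel sizing and PCR, per the labels' protocols. The authors' deposited list gives each peak a read count for the positive and the negative set, whole and by strand window, with no value per library. It also holds a coverage signal (reads at the highest window), log2 folds and a false discovery rate, a q-value, per the file headers. Positions are of mm9, as the submitters' processing notes name it. The aligner, the peak caller and the library depths are not given in the sources used here, so depth per sample is unknown.

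The scale of negative reads was solved from the deposited log2 folds below 0 as 3.3213, and 101 of 101 solvable entries returned it within 0.001. Ratios of densities and of reads carry exact conditional binomial intervals, and shares Clopper-Pearson ones, at 95% (Python 3.11.15, scipy 1.17.1). Functions were tested on simulated data. Densities use the length from first to last listed peak; chromosome Y was left out. Peaks were assigned to bins by their midpoint. Named peaks were the 10 best-ranked of the chromosome, 5 in the region, 5 in the distal 5 Mb, groups of 5 or more, and the 3 fullest and 3 emptiest bins with ties; other peaks were named with their values known. The members and lists were chosen with earlier results of these data known. The planned comparison over single libraries was not run, because the list merges them. No peak sequence is shown, since the mm9 genome was not used here.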

Additional observations from a re-analysis of the deposited data

How the results depend on the processing

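Of 56 values under alternative settings, 40 stayed within the counting interval of the reported value and 16 moved beyond it. Among the ratios 0 changed direction, and direction was not scored for the shares. Strand ratios could change direction only by falling below 1, in peaks listed for their positive reads. Chromosome 17 over the other chromosomes gave 1.11 with only peaks without negative reads. The region's density ratio was 1.93 without the bin at 35 Mb and 1.19 over the other crowded bins, a setting chosen with the data in view. The distal ratio was 0.669 over 10 Mb, against 0.351 over 5 Mb. Strand ratios without scaling were 9.62 in the region and 13.5 in the rest, and whole-peak columns, with few negative reads, gave 643 and 1210. The whole-peak values carry the conflict between columns described above and are not plain ratios to the control. In the rest of the chromosome the strand ratio was 3.77 in the better-ranked 50% of peaks, 3.74 at a false discovery rate of 0.01 or less and 3.13 in the crowded bins. Its share with negative strand reads was 29.2%, 29.0% and 32.3% in those settings. Its share with 50 or more positive reads was 8.42% at that rate and 3.12% without negative reads. The cause of these shifts was not tested. No paired analysis was possible because the list pools the libraries, and for the same reason no library could be left out in turn.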

Other observations

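Stretches without any listed RAP1 peak broke up chromosome 17 well before its sparse distal end. The longest, of 1232 kb, ran between the peaks that end at 7423245 and start at 8654915. The next, of 840 kb, began at 37800740, just past the distal bound of the histocompatibility region, and ended at 38640328. Another, of 816 kb, ran from 18195025 to 19011508. The longest in the distal 5 Mb, of 585 kb, was only the 10th of the chromosome. Of the 91 whole 1 Mb bins, 24 had no negative strand read at any of their peaks, and these bins held 134 peaks, at most 15 each.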
